A study of Mus musculus with 4 samples.

Results

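The forkhead transcription factor genes were taken as all rows of the deposited expression table whose mouse gene symbol was Fox, a letter from a to s and a number, with or without a further letter. The rule found 44 genes among the 24026 genes listed. It used names only and no measured value. F123-ESCs are a male hybrid mouse embryonic stem cell line with a maternal S129 (S129S4/SvJae) and a paternal CAST genome. The 4 libraries (replicates 1 to 4) were polyadenylated RNA from untreated cells, grown on feeders with LIF and serum replacement, passaged onto gelatin without feeders and harvested about 48 h after plating. Each gene had a value for the S129 allele and a value for the CAST allele in every library, made only from reads that covered a variant between the genomes. The labels did not say whether the libraries came from separate cultures, so the p-values here measure the spread between libraries, which may be technical.

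Forkhead proteins share a DNA-binding domain of the winged-helix type, whose recognition helix lies in the major groove of the DNA and reads sites built around a TAAACA core. Subfamilies carry the letter in the name. Foxd3 helps keep pluripotent cells undifferentiated, Foxh1 brings Nodal signals to the genome through Smad proteins, Foxo proteins are held in the cytoplasm by insulin and Akt signalling, Foxm1 switches on genes of the G2 and M phases, and Foxa proteins open chromatin in endoderm. Many other members are known from single tissues that embryonic stem cells have not yet formed.

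The coding sequence of the recognition helix is shown because it is the part of the protein that the family has in common. It was found in 43 of the 44 members by searching the longest annotated coding sequence for the codons of arginine, histidine, asparagine or serine, and leucine in a row. A match was taken only where the sequence held exactly 1, which was not so for Foxr1. The stretches below run 5′ to 3′ on the coding strand over 39 bases, from the reference genome mm10 with GENCODE M21 annotation, for 10 of the 13 members with a match that averaged at least 1 RPKM (reads per kilobase of gene length, scaled to library size). Capitals mark the 16 bases that all 13 shared.
Foxj3: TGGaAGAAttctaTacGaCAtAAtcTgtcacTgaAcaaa
Foxk2: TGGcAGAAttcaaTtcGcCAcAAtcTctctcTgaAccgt
Foxk1: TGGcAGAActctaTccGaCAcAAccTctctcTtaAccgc
Foxm1: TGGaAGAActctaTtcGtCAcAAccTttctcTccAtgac
Foxn2: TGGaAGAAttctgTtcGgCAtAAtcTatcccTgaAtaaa
Foxd3: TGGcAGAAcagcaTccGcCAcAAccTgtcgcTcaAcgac
Foxo4: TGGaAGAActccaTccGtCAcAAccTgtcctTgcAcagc
Foxn3: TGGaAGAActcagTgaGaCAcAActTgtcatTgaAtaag
Foxp4: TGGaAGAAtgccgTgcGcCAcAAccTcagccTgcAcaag
Foxo3: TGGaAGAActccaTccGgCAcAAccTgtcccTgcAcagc

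The stretch lay in a single exon in Foxd3 (chr4:99657147-99657185, plus strand), Foxn2 (chr17:88463192-88463230, plus strand) and Foxn3 (chr12:99388394-99388432, minus strand). In the other 10 of these 13 genes an intron cut through it. The interrupted stretch of Foxo3 ran over chr10:42197869-42274821 on the minus strand. Among the 30 members under 1 RPKM that had the stretch, an intron cut through it in only 4, Foxj2, Foxo6, Foxp2 and Foxp3. The share cut by an intron was thus higher among the expressed members, which is a description over genes of shared ancestry, with no test.

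The depth and identity of the libraries bear on every value below. Totals recovered from the steps of the RPKM values ran from 34120417 reads in replicate 4 to 56627973 reads in replicate 1, S129 and CAST together. Each allele was scaled to its own total, and 1 read of an allele on a gene of 1000 bp was worth 0.0348 to 0.0598 RPKM. All 8 pluripotency markers were above 1 RPKM, with a median of 105 RPKM. Their summed level ran from 7812 to 9478 RPKM over the libraries and came mostly from Dppa5a (7111 RPKM). Tfcp2l1 stood at 583 RPKM on a gene length of 478 bp where its exons cover 9438 bp. Of 8 markers of feeder fibroblasts, 6 were above 1 RPKM, with a summed level of 179 to 225 RPKM, Col1a2 the highest at 166 RPKM (on a gene length of 850 bp where its exons cover 12426 bp) and Lum the lowest at 0.046 RPKM. Of the markers of other lineages, 5 of 10 for endoderm, 3 of 6 for mesoderm and 2 of 6 for neural cells reached 1 RPKM, and their summed levels ran from 54.0 to 61.0, from 12.4 to 15.6 and from 85.6 to 107 RPKM. The endoderm and neural sums came mostly from Dab2 (44.2 RPKM) and Nes (76.2 RPKM), on gene lengths of 642 and 1311 bp where their exons cover 7342 and 6416 bp. Hnf4a, counted among the endoderm markers at 6.75 RPKM, had a length of 431 bp against 4828 bp of exons. No marker in any of these lists was at 0 in every library. The part that feeder cells or cells of other lineages had in the level of any forkhead gene was not tested, and in bulk RNA fewer cells of a type and less RNA per cell cannot be told apart.

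Forkhead genes were mostly low in F123-ESCs. By the mean of both alleles over 4 libraries, 5 of the 44 members were at or above 10 RPKM, 9 were from 1 to 10 RPKM, 16 from 0.1 to 1 RPKM and 14 under 0.1 RPKM. The 14 members at or above 1 RPKM were 31.8% of the family, against 49.7% of all listed genes and 54.9% of the 20253 protein-coding genes. The median member was at 0.248 RPKM and the median protein-coding gene at 1.68 RPKM. Counted library by library, 15, 16, 15 and 15 members reached 1 RPKM in replicates 1 to 4. Foxj2 and Foxa3 had means just under the limit, at 0.987 and 0.980 RPKM. The 71258 reads on members fell almost wholly on the same 14 genes, which held 94.6% of them. Reads cover a gene only where the genomes differ, so levels of different genes also reflect how many variants each carries.

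**Figure D1:**
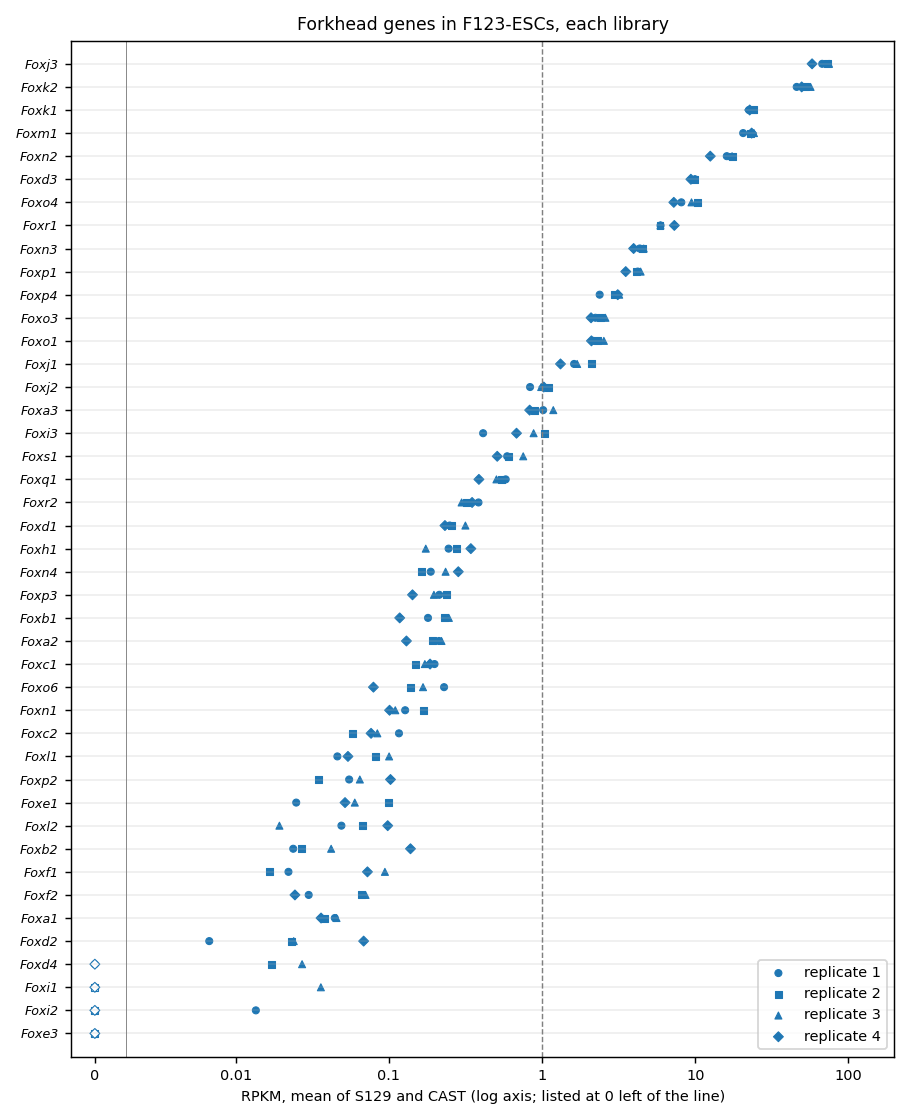
Level of 43 of the 44 forkhead genes in each of 4 libraries, as the mean RPKM of the S129 and CAST alleles on a log axis, with genes in order of their mean and values listed at 0 left of the thin line. The dashed line is 1 RPKM, and 14 members have their mean to its right, from Foxj1 at 1.69 RPKM to Foxj3 at 68.4 RPKM.

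The highest deposited values belonged to Foxj3, Foxk2, Foxk1, Foxm1 and Foxn2. Foxk1 and Foxk2 encode widely expressed repressors that recruit Sin3 complexes, and Foxn2 and Foxn3 belong to a subfamily whose member Foxn3 was first described as a checkpoint suppressor. Foxj3 (chr4:119537004-119629119) had both-allele means of 68.4 ± 7.58 RPKM (SD, n = 4), with S129 values of 71.8, 70.3, 78.7 and 57.5 RPKM and CAST values of 63.3, 75.8, 71.0 and 58.5 RPKM in replicates 1 to 4. Replicate 4 was the lowest for both alleles. Foxk2 (chr11:121259990-121309896) stood at 51.3 ± 4.55 RPKM, Foxk1 at 23.3 ± 0.878, Foxm1 at 22.8 ± 1.56 and Foxn2 at 15.9 ± 2.34 RPKM (SD, n = 4 each). Foxk1 was above Foxm1 in 2 of 4 libraries, and the difference of 0.037 ± 0.074 (log2, SD) was within the spread between libraries.

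This order rested in large part on the gene lengths the authors divided by. The length behind an RPKM value could be read back from its steps, and for Foxj3 it was 368 bp where the annotated exons cover 10973 bp. For Foxk2 it was 607 of 5258 bp, for Foxk1 687 of 7584 bp, for Foxm1 1329 of 5754 bp and for Foxr1 782 of 2291 bp. These 5 members had exons at least 2 times longer than the length used, as had 3763 of the 11938 genes at or above 1 RPKM with a known length (31.5%). The next values hold only if reads were counted over all annotated exons, which the sources used here do not state. Divided by the exon length instead, Foxj3 fell to 2.29 RPKM, Foxk2 to 5.92, Foxk1 to 2.11, Foxm1 to 5.26 and Foxr1 to 2.14 RPKM. Foxn2 then led with 11.0 RPKM, followed by Foxd3 at 9.81 and Foxo4 at 7.99 RPKM. By recovered reads, which are not divided by a length and so tend to be more on longer genes, Foxn2 led with 15614 in 4 libraries. Foxn3 followed with 6395, Foxk2 with 5889 and Foxm1 with 5693, while Foxj3 had 4816. The same 14 members reached 1 RPKM on either length.

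**Figure D2:**
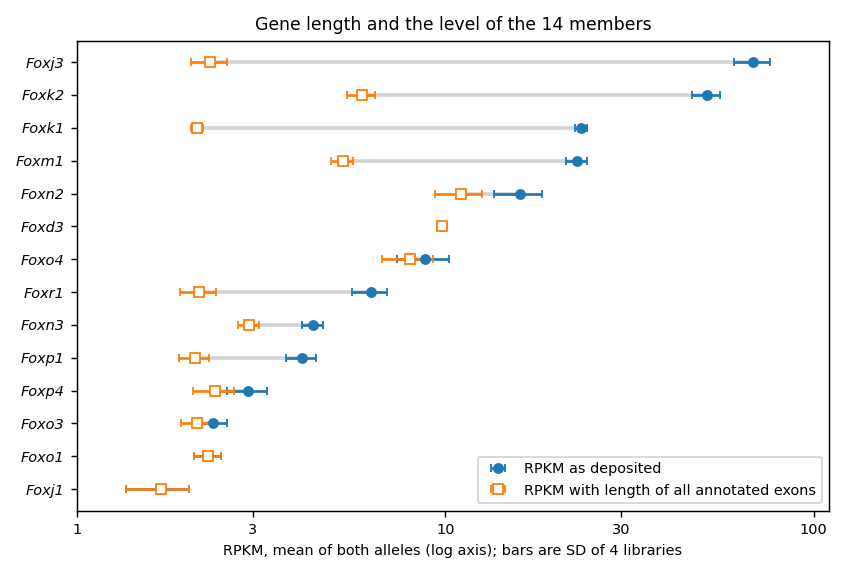
Mean RPKM of the 14 members at or above 1 RPKM on a log axis, as deposited (filled circles) and with the length of all annotated exons in place of the length the authors used (open squares), with SD over 4 libraries. Foxj3 moves from 68.4 to 2.29 RPKM and Foxk1 from 23.3 to 2.11 RPKM, while Foxd3, Foxo1 and Foxj1 stay in place and only the square shows.

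Foxm1 is the member tied to cell division. Its both-allele level was 22.8 RPKM as deposited and 5.26 RPKM over its full exon length, with S129 values of 22.2, 24.7, 26.2 and 23.6 RPKM and CAST values of 18.9, 21.0, 22.2 and 23.1 RPKM. All 12 of the listed genes that Foxm1 is known to switch on in G2 and M phase were above 1 RPKM, with a median of 56.7 RPKM. They ran from Cdc25b, a phosphatase that starts mitosis, at 3.19 RPKM to Birc5, the survivin gene, at 357 RPKM. Birc5 had a gene length of 947 bp where its exons cover 3402 bp, so its place at the top depends on the length used. Ccnb1, which encodes cyclin B1, was at 133 RPKM and the mitotic kinase gene Plk1 at 35.2 RPKM. All 8 listed cofactors of Foxk proteins were also above 1 RPKM, from Asxl2 at 4.98 RPKM to Sin3a at 138 RPKM, the latter on a length of 364 bp where its exons cover 5385 bp.

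Foxd3 (chr4:99656299-99658622) is a gene of a single exon and had the same level on either length. Its mean was 9.81 ± 0.293 RPKM (SD, n = 4), the smallest spread for its size among the 14 members. Foxd3 was below Foxn2 in 4 of 4 libraries on the deposited values and above Foxo4 in 3 of 4. The difference from Foxo4, 0.17 ± 0.20 (log2, SD), was within the spread.

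Of the Foxo genes, which act downstream of insulin and Akt, 3 of 4 were above 1 RPKM. Foxo4, X-linked and expressed from S129 alone, stood at 8.81 ± 1.40 RPKM as the mean of both alleles and 17.6 ± 2.81 RPKM on S129, Foxo3 at 2.33 ± 0.219 and Foxo1 at 2.27 ± 0.192 RPKM (SD, n = 4 each), while Foxo6 was at 0.153 ± 0.062 RPKM. Foxo3 and Foxo1 differed by 0.036 ± 0.034 (log2, SD) and were not ordered alike in all 4 libraries. All 12 listed genes that control Foxo proteins were above 1 RPKM, from the acetyltransferase gene Crebbp at 1.30 RPKM to Ywhae, a 14-3-3 gene, at 116 RPKM, with the kinase gene Akt1 at 38.3 RPKM. On the deposited lengths, all 12 listed targets of Foxo proteins were above 1 RPKM as well. They ran from Klf6 at 3.14 RPKM to the cell death gene Pmaip1 at 64.6 RPKM, with Gadd45a, a DNA damage gene, at 47.4 RPKM. Some of the targets had a length far shorter than their exons, so the count and the lowest gene may differ on exon lengths.

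The remaining members above 1 RPKM were Foxr1, Foxn3, Foxp1, Foxp4 and Foxj1. Foxr1 stood at 6.27 ± 0.693 RPKM, Foxn3 at 4.36 ± 0.287, Foxp1 at 4.07 ± 0.383 and Foxp4 at 2.91 ± 0.369 RPKM (SD, n = 4 each). Foxp proteins pair with each other through a zipper, and Foxp1 has a splice form particular to pluripotent cells, which gene values cannot show. Foxp2, known for its part in speech, was far lower at 0.064 ± 0.028 RPKM, and Foxp3, the factor of regulatory T cells, was at 0.198 ± 0.041 RPKM. Foxj1, the master regulator of motile cilia, was the lowest of the 14 at 1.69 ± 0.325 RPKM. In the whole order of 14, the same member was higher in 4 of 4 libraries in 9 of the 13 neighbouring pairs. For these the two-sided exact sign-flip test gives p = 0.125, the smallest that 4 libraries allow. The order was itself taken from these libraries, so the test cannot decide it. With exon lengths the count was 5 of 13 pairs.

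Foxh1 was low, and most listed genes of the pathway it serves were not. Its mean was 0.260 ± 0.070 RPKM (SD, n = 4), from 62 reads in all, at a gene length that could only be bounded by search, so that the true read count may be a multiple of this. Of 12 genes of the Nodal arm, 11 were above 1 RPKM. Tdgf1, the Nodal co-receptor, was at 488 RPKM, Nodal itself at 85.9, its inhibitor Lefty1 at 50.2 and Smad2 at 22.1 RPKM. Gsc, a gene induced by strong Nodal signals, was the exception at 0.847 RPKM. As above, levels of different genes also reflect how many variants each carries.

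The rest of the family lay under 1 RPKM. The endoderm pioneers differed among themselves, with Foxa3 at 0.980 ± 0.156 RPKM, Foxa2 at 0.189 ± 0.041 and Foxa1 at 0.041 ± 0.0047 RPKM (SD, n = 4 each). Foxi3 (0.752 RPKM), a gene of ectodermal appendages, Foxs1 (0.614 RPKM), Foxq1 (0.503 RPKM) and the X-linked Foxr2 (0.338 RPKM) came next. Between 0.1 and 0.3 RPKM lay Foxd1 of the kidney stroma (0.263), Foxn4 of the retina (0.217), Foxb1 of the hypothalamus (0.193), Foxc1 (0.176) and Foxn1 of the thymus epithelium (0.127). The 14 lowest began with Foxc2 at 0.084 RPKM. Second to last was Foxi2 at 0.0034 RPKM, which had 2 reads in all libraries, and last was Foxe3, a gene of the lens, listed at 0 in all 8 allele columns.

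Forkhead genes that sit side by side in the genome were low, as most members of the family were. In the cluster on chromosome 13, Foxq1 and Foxf2 lay 64.8 kb apart and Foxf2 and Foxc1 175 kb apart, with levels of 0.503, 0.048 and 0.176 RPKM. In the cluster on chromosome 8, Foxf1 and Foxc2 lay 28.0 kb apart and Foxc2 and Foxl1 9.05 kb apart, at 0.051, 0.084 and 0.070 RPKM. Foxd2 and Foxe3 on chromosome 4, 16.3 kb apart, were at 0.031 RPKM and at 0. No member closer than 300 kb to another reached 1 RPKM, where 31.8% of all 44 members did, given here as a description.

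Some of these low values also overlap other transcripts, and how the authors' counting treated strand was not given in the sources used here. On Foxq1, 3200 of 4843 exon bases lay under a gene on the opposite strand. On Foxp3, 590 of 4577 exon bases lay under Ccdc22, an opposite-strand gene at 5.82 RPKM. A further 853 exon bases of Foxp3 were shared with Flicr, a gene on the same strand at 0.209 RPKM. Reads at these 2 members are therefore uncertain in origin. Exons of other members also overlapped other genes, among them Foxb1 with 418 of 2984 bases and Foxo1 with 674 of 8665.

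The hybrid genome allows the alleles to be compared within each library, which asks whether S129 and CAST copies of a gene gave different amounts of RNA in the same cells. Differences were computed as log2(RPKM + 0.1), S129 minus CAST, and tested by limma over 13341 genes, of which 62.7% passed an adjusted p under 0.05, 31.4% higher on S129 and 31.3% higher on CAST. Of the 44 members, 19 were abundant enough to be tested and 25 were not. Of these 19, 10 (52.6%) were called. S129 was higher in 8 (Foxo4, Foxd3, Foxs1, Foxn2, Foxq1, Foxk2, Foxm1 and Foxp1, the last pair turning slightly negative once chromosome medians were removed) and CAST in 2 (Foxo1 and Foxj2). Against a background of 62.7% this share says nothing particular about the family. On autosomes 9 of 18 tested members were called, against 61.4% of all autosomal genes tested. Of the 18 tested, 7 were called higher on S129, against 28.9% of all autosomal genes tested. CAST was called higher in 2 of the 18, against 32.5%. The median absolute difference was 0.20 for these 18 and 0.29 for all autosomal genes. When each allele was scaled on autosomes only, S129 took 62.5% of all calls in place of 50.0%, the median over all genes moved to 0.098 from -0.0034, and the members called became 11 higher on S129 and 2 higher on CAST.

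Among the 18 tested autosomal members, Foxd3 had the largest difference between alleles. Its S129 values were 16.0, 16.2, 16.4 and 15.0 RPKM and its CAST values 3.94, 3.67, 3.57 and 3.73 RPKM in replicates 1 to 4. The alleles did not overlap, and every S129 value was at least 4 times the CAST value of its library. The log2 difference was 2.06 (SE 0.047, limma adjusted p = 1.7e-05, higher on S129 in 4 of 4 libraries), a 4.18-fold difference, and 81.6% of its 4382 reads were S129. Of the autosomal members, 1 (Foxd3) was called and past 2-fold, while 11.9% of all autosomal genes tested were. Of those genes 419 (3.26%) differed at least as far as Foxd3 in either direction. Its surroundings had no such difference. The median of the 865 tested genes of chromosome 4 was -0.013, and 9 of them lay further toward S129 than Foxd3. The 11 tested genes within 1 Mb had a median of -0.012 and ranged from -0.77 to 1.13.

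**Figure D3:**
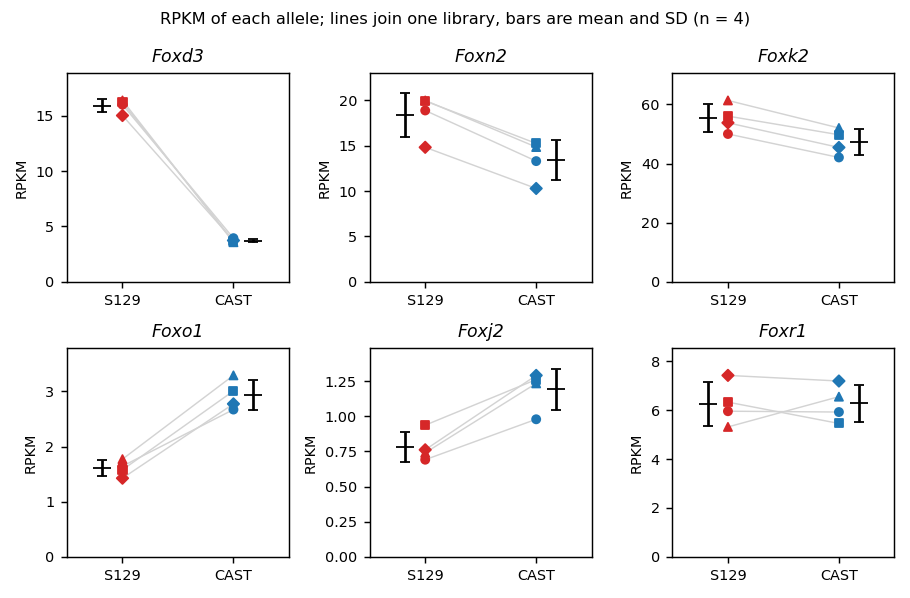
RPKM of the S129 and CAST alleles of 6 members in each of 4 libraries, on axes that start at 0, with lines joining the alleles of a library and the mean and SD of each allele at the side. Foxd3 separates furthest, with S129 at 15.0 to 16.4 and CAST at 3.57 to 3.94 RPKM, Foxo1 and Foxj2 go the other way, and the alleles of Foxr1 cross.

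Foxn2 was the other well-covered member with a clear S129 excess. Its S129 values were 18.9, 19.9, 20.0 and 14.8 RPKM and its CAST values 13.3, 15.2, 14.8 and 10.3 RPKM. The allele ranges overlapped across libraries, because replicate 4 was low on both, but S129 was higher within each library. The log2 difference was 0.46 (SE 0.039, limma adjusted p = 0.00082, 4 of 4 libraries). Foxk2 showed a smaller one, 0.23 (SE 0.032, limma adjusted p = 0.0042, 4 of 4), with S129 at 50.0, 56.0, 61.3 and 53.8 RPKM and CAST at 42.1, 49.7, 52.0 and 45.4 RPKM. Its allele ranges overlapped across libraries too, and a fit that ignored which library an allele came from did not call it (adjusted p = 0.085).

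Foxo1 and Foxj2 were higher on CAST. Foxo1 had S129 values of 1.65, 1.58, 1.77 and 1.43 RPKM and CAST values of 2.67, 3.01, 3.29 and 2.78 RPKM, with no overlap. Its log2 difference was -0.83 (SE 0.054, limma adjusted p = 0.00036, lower on S129 in 4 of 4 libraries). Its chromosome lay on the same side. The median of the 622 tested genes of chromosome 3 was -0.74, the 11 tested genes within 1 Mb of Foxo1 ran from -3.05 to -0.44, and after removal of the chromosome median Foxo1 was at -0.11 (SE 0.054, limma adjusted p = 0.135), no longer called.

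Foxj2 on chromosome 6 went against its chromosome. Its S129 values were 0.691, 0.937, 0.740 and 0.761 RPKM and its CAST values 0.979, 1.26, 1.23 and 1.29 RPKM, without overlap. The log2 difference was -0.55 (SE 0.069, limma adjusted p = 0.0028, 4 of 4), while the median of the 636 tested genes of chromosome 6 was 0.195, and with that median removed Foxj2 stood at -0.75 (limma adjusted p = 0.0014).

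Foxm1 and Foxp1 lie on the same chromosome and had small S129 excesses that several settings ended. Foxm1 differed by 0.18 (SE 0.050, limma adjusted p = 0.031, 4 of 4) and Foxp1 by 0.15 (SE 0.036, limma adjusted p = 0.021, 4 of 4). With the chromosome median removed both were slightly negative, at -0.018 and -0.053, and not called, as was Foxp1 under a variance trend (adjusted p = 0.063). Leaving out replicate 1, 2 or 3 ended the call of Foxm1 (adjusted p = 0.107, 0.112 and 0.111), and leaving out replicate 1, 3 or 4 that of Foxp1 (0.079, 0.084 and 0.059).

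Foxs1 and Foxq1 were called at low levels. Foxs1 had S129 values of 0.663, 0.743, 1.12 and 0.745 RPKM and CAST values of 0.520, 0.465, 0.387 and 0.274 RPKM, which did not overlap, from 155 reads. Its log2 difference of 0.84 (SE 0.20, limma adjusted p = 0.022, 4 of 4) was lost without replicate 2, 3 or 4 (adjusted p = 0.051, 0.063 and 0.070). Foxq1 differed by 0.32 (SE 0.078, limma adjusted p = 0.022, 4 of 4), with the antisense overlap given above, fell under the level filter without replicate 1 or 2, and was not called under a variance trend (adjusted p = 0.127).

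**Figure D4:**
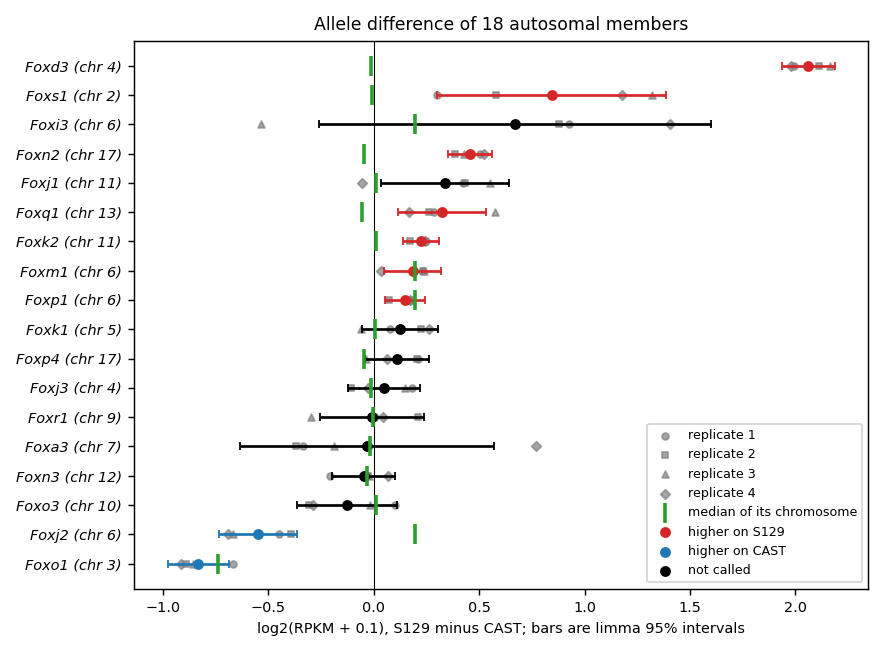
Difference between alleles of the 18 tested autosomal members as log2(RPKM + 0.1), S129 minus CAST, with limma 95% intervals in color by call, grey points for the 4 libraries and green bars for the median of the gene's chromosome. Foxd3 lies at 2.06 with its chromosome at -0.013, while Foxo1 at -0.83 lies close to the bar of its own chromosome at -0.74.

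For the other 9 tested members no difference was called. The intervals bound what could be missed. Foxj3 differed by 0.048 (95% interval -0.12 to 0.22), Foxk1 by 0.13 (-0.054 to 0.31), Foxn3 by -0.048 (-0.20 to 0.10), Foxp4 by 0.11 (-0.042 to 0.26) and Foxr1 by -0.0084 (-0.25 to 0.24). Foxo3, which shared its level with Foxo1, was at -0.13 (-0.37 to 0.11). Foxj1 came closest to a call at 0.34 (SE 0.114, limma adjusted p = 0.057, 3 of 4 libraries) and was called without replicate 4 (0.47, limma adjusted p = 0.0044). Foxi3 was called without replicate 3 (1.07, limma adjusted p = 0.0093) and Foxa3 without replicate 4 (-0.30, limma adjusted p = 0.018). In each of these 3 genes the library left out was the 1 that went the other way.

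The 3 X-linked members had no CAST reads. The line is male and its X chromosome is maternal, S129. Foxo4 (chrX:101254528-101260873) had 16.2, 20.8, 18.9 and 14.5 RPKM on S129, from 5435 reads, and 0 CAST reads in 4 libraries. With a floor of 3 reads over the 4 libraries, which covers counting error only, S129 was at least 1744-fold higher, and up to 0.0552% of its reads could be CAST. Foxr2, with 210 reads, was at least 67.4-fold higher on S129, and Foxp3, with 150 reads, at least 48.1-fold. These bounds follow the number of reads only, since a male line with a maternal X holds no CAST copy of these genes.

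Among the 25 members too low to be tested some had uneven reads, given here as shares of all reads in 4 libraries with exact Clopper-Pearson 95% intervals for counting error only. Foxb1 had 27 S129 and 84 CAST reads, an S129 share of 24.3% (16.7% to 33.4%). Foxc1 had 134 S129 and 62 CAST reads, a share of 68.4% (61.4% to 74.8%). Foxh1 had 17 and 45 reads and Foxn1 26 and 52, while Foxb2 had 0 S129 and 14 CAST reads. Single libraries varied widely, with S129 shares from 10% to 58.3% in Foxb1 and from 6.67% to 63.6% in Foxh1. Neither thus leaned to CAST in every library. The shares ran from 51.4% to 87.8% in Foxc1 and from 21.7% to 47.1% in Foxn1. Foxd1, at 106 and 147 reads, was closer to balance, with an S129 share of 41.9% (35.7% to 48.2%). Its single libraries ran from 29.6% to 50.6%.

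Listed partners and targets of the members were also called toward either allele. Of the 12 Nodal genes 3 were called higher on S129 and 4 on CAST, of the 12 that control Foxo 4 and 5, of the 12 Foxo targets 4 and 3, of the 12 Foxm1 targets 1 and 5, and of the 8 Foxk cofactors 3 and 1, where 62.7% of all genes were called. Gadd45a differed by 1.32 (SE 0.040, limma adjusted p = 3.9e-05) toward S129 and Crebbp by 0.91 (SE 0.073, limma adjusted p = 0.00068) toward S129, while Pmaip1 differed by -0.88 (SE 0.037, limma adjusted p = 0.0001) toward CAST. Among the Foxk cofactors, Hcfc1 and Ogt are X-linked, and their call for S129 is that of the male X.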

How the data were processed

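RNA was sequenced from 4 libraries of untreated F123-ESCs, as stranded paired reads of 150 bp. Per the study's methods, the authors checked reads with FastQC, removed ribosomal reads, trimmed them with Trimmomatic 0.40, aligned them with STAR to mm10 with variant positions masked, and split reads over variants by allele. What the authors deposited for each gene is an RPKM value per allele and library. The counting program, its strand setting and its annotation are not given in the sources used here. Mean and log columns of the deposited table were not used, and 0 columns belonged to other samples.

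Gene coordinates came from GENCODE M21 (mm10), on which all 44 members matched. Members, lists and tests were chosen with earlier results of these data known. Totals, gene lengths and reads were recovered from the steps of the RPKM values, and 20094 of 20200 other genes above 0 (99.5%) gave whole reads within 0.02 reads in every column. Of the members, 37 matched the length of the first listed transcript, 2 another transcript and 4 a length found by search (Foxd4, Foxp3, Foxb2 and Foxh1), which gives the fewest possible reads. Foxe3 had none.

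Levels are the mean of both alleles per library, with mean and SD over 4 libraries. Alleles were compared by limma 3.58.1 in R 4.3.3 on log2(RPKM + 0.1), as S129 minus CAST in the same library, over 13341 genes whose 2 alleles summed to a mean of at least 1 RPKM, with Benjamini-Hochberg adjustment over all of them, two-sided. This pseudocount understates differences of low genes. Both values of a difference come from the same library: deviations of S129 and CAST columns of a library correlated at 0.146 to 0.234 across 11946 genes, and those of different libraries at -0.187 to 0.151. The fit was tested on simulated data. All members were counted, and those at or above 0.1 RPKM were named with values, except 1 member that is not reported here. Neither are 3 of the coding stretches and 1 gene of the Foxo list. The analyses used Python 3.11.15, and figures were drawn with matplotlib 3.10.9. Alternatives varied the pseudocount, filter, scaling, gene length, model and libraries.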

Additional observations from a re-analysis of the deposited data

Results flagged for a closer look

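A single library stood apart from the other 3 in 6 of 33 quantities examined (levels of the members at or above 1 RPKM and allele differences of the tested members). The test used, Dixon's ratio of gap to range, marks about 1 in 20 by chance, or 1.65 of 33. For levels, Foxd3 in replicate 4 was at 9.37 RPKM where the others were at 9.93 to 9.97, and Foxr1 in replicate 4 was at 7.31 RPKM where the others were at 5.89 to 5.94. For log2 differences of S129 minus CAST, Foxp1 was at 0.071 in replicate 2 (others 0.17 to 0.18), Foxk2 at 0.17 in replicate 2 (others 0.24 to 0.25), Foxm1 at 0.034 in replicate 4 (others 0.23 to 0.24) and Foxa3 at 0.77 in replicate 4 (others -0.37 to -0.19). Replicate 4, which holds 4 of the 6, had the fewest reads, and the part of depth in these values was not tested.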

How the results depend on the processing

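Fox members called higher on S129 numbered 8. Without the pairing of alleles in a library (no replicate block) they numbered 4, with Foxp1, Foxm1, Foxq1 and Foxk2 lost, and over all genes the counts were 3292 higher on S129 and 3133 on CAST against 4187 and 4182. Leaving out a library gave 5 to 7 members higher on S129, and 5 without replicate 1 or replicate 2. The 2 members higher on CAST became 0 at a filter of 5 RPKM, which neither reaches, and 1 with chromosome medians removed, where Foxp1 (-0.053) and Foxm1 (-0.018) also changed sign. Scaling by read totals of autosomal genes, added after the data were seen, gave 9 and 2 members. With exon lengths 5 neighbouring pairs in place of 9 kept their order in every library, and 7 with the length of the longest transcript, which was also added later. Of 237 planned values of single differences, 201 kept their direction and side of the threshold, 18 lost the call, 7 gained it and 11 changed sign. Beside Foxp1 and Foxm1, the sign changed in 3 members near 0 that were not called with all 4 libraries. Foxn3 (-0.048) became 0.053 with autosomal scaling and ran from -0.087 to 0.0054 when a library was left out. Foxa3 (-0.031) became 0.061 with autosomal scaling, 0.011 with autosomal read totals, and ran from -0.30 to 0.082 when a library was left out. Foxr1 (-0.0084) became 0.093 with autosomal scaling, 0.037 with autosomal read totals, and 0.0028 with chromosome medians removed, and ran from -0.081 to 0.088 when a library was left out. The 25 untested members, left out by the filter on RPKM, had 0 to 253 reads.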
